A study of Homo sapiens with 9 samples.

Results

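Of 1733 genes with a LINC name and number in the count table, 111 had at least 200 counts summed over the 9 libraries of this study, and these members, chosen by that summed count, are described here. The other LINC genes had 1 to 199 counts in 712 cases and no count in 910 cases. The 200-count rule used the sum over all groups and not the difference between them. LINC01684 with 200 counts and LINC00467 with 201 lay just inside it, and LINC02994 with 199 just outside. All 111 members also passed the filter on low counts that preceded the tests. Taken alone, the SGA360 libraries would have carried 110 of them to a proportionate share of the minimum, the SGA315 libraries 109 and the libraries with lovastatin alone 92.

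Long intergenic non-coding RNAs are transcripts of RNA polymerase II, most of them capped, spliced and polyadenylated, that lie between protein-coding genes and hold no long reading frame. LINC names carry a number and are given when no function is known, so the group is united by gene structure and not by a pathway. Some members act on the expression of a neighbouring gene or on chromatin, others bind proteins or microRNAs, and for many no role is established. They are usually less abundant and more cell-type restricted than messenger RNAs, and they include many genes whose start sites lie close to that of a coding gene.

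RNA was measured by poly(A) sequencing in Caco-2, a line from a human colon adenocarcinoma that serves as a model of intestinal epithelium, grown in medium with lipid-depleted serum. The cells had received 10 µM lovastatin with 10 µM SGA360, 10 µM lovastatin with 10 µM SGA315, or 10 µM lovastatin alone, each for 48 h and each in 3 libraries. Lovastatin inhibits the rate-limiting enzyme of cholesterol synthesis, and the series design names the other 2 compounds as ligands of AHR, the aryl hydrocarbon receptor, a transcription factor activated by binding small molecules. Every group therefore carried the statin, and cells without it were not analysed here. Below, the libraries with both lovastatin and a ligand are named by the ligand. The study asked how the AHR ligands alter gene expression under lovastatin.

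Depth was 12332688 to 16868249 counts per library over 1 transcript per gene, and each of the 9 libraries correlated best with another of its own group. Nothing in the labels ties the replicates to separate cultures. The p-values then cover only how these libraries differ among themselves, which may be technical variation. Of 14 enterocyte markers 12 averaged at least 1 CPM (counts scaled to a common library size by TMM), with KRT20 at 0.137 and SI at 0.902 CPM. The summed enterocyte markers were 5968 to 6404 CPM with SGA360, 4647 to 4761 CPM with SGA315 and 8193 to 8292 CPM with lovastatin alone. KRT8 (mean 2536 CPM over the 9 libraries), KRT18 (1181 CPM) and CDH1 (913 CPM) made up most of this sum, which does not stand for each marker. CDX2, also on the list, went the other way. It averaged 80.2 CPM with SGA360, 117 CPM with SGA315 and 75.9 CPM with lovastatin alone. Values by group of the other enterocyte markers are not given here. Of 6 fibroblast markers only PDGFRA and COL1A1 reached 1 CPM, and the list summed to 198 to 210 CPM with SGA360, 208 to 210 CPM with SGA315 and 402 to 408 CPM with lovastatin alone. Of 6 leukocyte markers 2 reached 1 CPM, and the sums were 9.68 to 10.5 CPM with SGA360, 11.3 to 13.5 CPM with SGA315 and 14.6 to 16.4 CPM with lovastatin alone. Of 4 endothelial markers 2 reached 1 CPM, with KDR at 0, and the sums were 1.68 to 2.52 CPM with SGA360, 2.50 to 3.09 CPM with SGA315 and 1.75 to 3.08 CPM with lovastatin alone. The part of these shifts in the LINC results was not tested. In such bulk samples fewer cells of a type and less RNA per cell cannot be told apart.

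The LINC RNAs were mostly scarce. Their mean level over the 9 libraries ran from 1.5 to 65.7 CPM with a median of 3.68 CPM, and 29 of 111 reached 10 CPM, 50 reached 5 CPM and 87 reached 2 CPM. The median coefficient of variation between the 3 libraries of a group was 9.02% with SGA360, 9.17% with SGA315 and 10.5% with lovastatin alone. A transcript length could be linked for 79 members, with a median of 2252 nt (422 to 16489 nt) and a median of 3 exons, and 10 of these had a single exon. Per kilobase of transcript the highest of the 79 were LINC00668 at 28.3, LINC01873 at 20.8 and LINC00847 at 13.1 CPM per kb, while LINC00205, highest before correction for length, had 8.72 CPM per kb.

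Strand was not stated for the counts, so overlap with coding genes was recorded for every member. By RefSeq gene spans, 10 members overlapped a protein-coding gene, in GENCODE 10 shared exon sequence with one, and 93 did neither. For those that did, LINC00847 with ZFP62 and LINC00294 with CSTF3 among them, reads of the coding gene and of the LINC RNA may not have been separated. Near-identical copies, at 95% identity or more over 50% or more of the transcript, were found for 10 of the 79 members with a linked transcript, and their levels are uncertain for that reason. These include LINC01347, LINC01719, LINC01123, which shares sequence with the member LINC01106, LINC00261, whose copy AL121722.1 is a differently annotated transcript over the same exons, and LINC01873, which matches part of the coding gene RASEF. The row kept for LINC02693 carries a coding RefSeq accession (NM), and those of the other 110 members carry non-coding ones (NR).

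Several of the members with the most counts stood apart between the treatments. LINC00674 had 67, 69 and 65.3 CPM with SGA360, 70.1, 68.9 and 71.5 CPM with SGA315 and 36.2, 35.4 and 36.4 CPM with lovastatin alone. Both ligand groups lay well above the statin alone, with no overlap. LINC00668 had 28.4, 28.9 and 28.1 CPM with SGA360, 42.3, 37.6 and 41.7 CPM with SGA315 and 78.1, 80.1 and 80.6 CPM with lovastatin alone. Here the order was different, with SGA360 lowest, SGA315 between and lovastatin alone highest, and no library of one group within the range of another. LINC00205 had 61.1, 59.8 and 63.3 CPM with SGA360, 72.7, 74.2 and 73.1 CPM with SGA315 and 61.4, 65.4 and 60.6 CPM with lovastatin alone, so that only SGA315 stood apart. LINC01000 had 59.5, 63.9 and 61.1 CPM with SGA360, 66.5, 65.9 and 64.4 CPM with SGA315 and 46.9, 47.8 and 47 CPM with lovastatin alone, with both ligand groups above the statin alone.

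The remaining 8 of the 12 members with the highest CPM were LINC02693, LINC01873, LINC00667, LINC00504, LINC00261, LINC02038, LINC00847 and LINC02043. LINC02038 had 23.8, 22.4 and 25.2 CPM with SGA360, 19.4, 22.7 and 22.8 CPM with SGA315 and 32.3, 32.5 and 31.1 CPM with lovastatin alone, lower in every ligand library. LINC00847, which overlaps ZFP62 on the opposite strand, had 25.4, 27.5 and 28.2 CPM with SGA360, 28.1, 28.4 and 30.0 CPM with SGA315 and 17.2, 16.5 and 19.4 CPM with lovastatin alone, higher in every ligand library. LINC00261, a neighbour of the endoderm transcription factor gene FOXA2 that takes part in FOXA2 activation during human endoderm differentiation, had 30.8, 31.6 and 31.2 CPM with SGA360, 23.8, 20.8 and 20.9 CPM with SGA315 and 30.9, 29.7 and 26.9 CPM with lovastatin alone. Its SGA315 values lay below all others, and those of SGA360 and lovastatin alone overlapped.

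The other 5 of these 12 were mostly higher with a ligand. LINC02693 had 44.9, 47 and 42 CPM with SGA360, 49.8, 48.8 and 47.3 CPM with SGA315 and 41.4, 41.6 and 40.7 CPM with lovastatin alone. LINC01873 had 41.1, 41.1 and 37.2 CPM with SGA360, 37.8, 36.7 and 34.6 CPM with SGA315 and 30.9, 28.9 and 25.6 CPM with lovastatin alone, and all ligand libraries lay above lovastatin alone. LINC00667 had 31.6, 29.7 and 28.4 CPM with SGA360, 35, 35.4 and 34.4 CPM with SGA315 and 26, 27.4 and 24.4 CPM with lovastatin alone, with the groups in the order SGA315, SGA360, lovastatin alone and no overlap. LINC00504 had 31.7, 28.5 and 28.9 CPM with SGA360, 34.6, 30.2 and 33.1 CPM with SGA315 and 24.6, 24.2 and 23.1 CPM with lovastatin alone, higher in every ligand library. LINC02043 had 22.2, 18.6 and 20.1 CPM with SGA360, 23.2, 21.4 and 21.4 CPM with SGA315 and 20.01, 18 and 20.1 CPM with lovastatin alone, with SGA360 and lovastatin alone overlapping. Against lovastatin alone the log2 fold change was 0.49 with SGA360 and 0.36 with SGA315 for LINC01873, and 0.31 with SGA360 and 0.45 with SGA315 for LINC00504, all called (edgeR). For LINC00667 it was 0.21 with SGA360 (adjusted p = 0.00209, or 0.0512 without SGA360 replicate 1) and 0.43 with SGA315 (adjusted p = 4.03e-09). LINC02693, at 0.12 with SGA360, was called (adjusted p = 0.0338), but that call ended in 9 of 13 alternatives, at adjusted p up to 0.339. With SGA315 its 0.24 was called in each of them. LINC02043, at 0.18 with SGA315 (adjusted p = 0.0252), was no longer called without lovastatin replicate 2 (adjusted p = 0.194) or SGA315 replicate 1 (0.187), without the filter on low counts (0.054) or with DESeq2 (0.129).

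**Figure D1:**
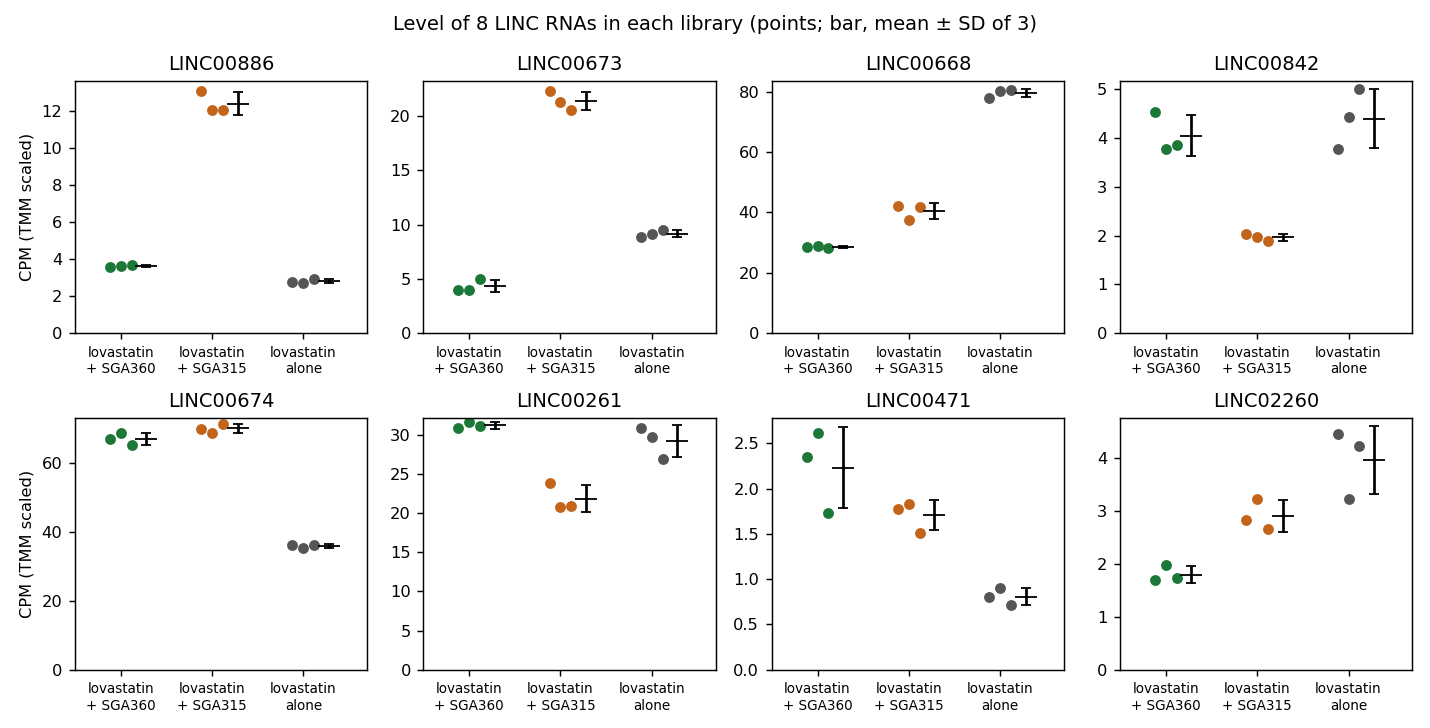
CPM of 8 LINC RNAs (vertical axes, linear from 0) in each library (points), with the mean ± SD of 3 libraries beside them, for lovastatin + SGA360, lovastatin + SGA315 and lovastatin alone. LINC00886 and LINC00673 are highest with SGA315, LINC00668 is highest with lovastatin alone, LINC00842 and LINC00261 are lowest with SGA315, and LINC00674 is higher with either ligand.

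SGA360 against lovastatin alone showed more LINC RNAs higher than lower. Of 111 members 48 were higher, where 31.4% of all 14663 genes tested were called higher, and 12 were lower, where 31.4% were called lower (edgeR quasi-likelihood test, Benjamini-Hochberg adjusted p under 0.05 over all genes). In shares of the members this is 43.2% higher and 10.8% lower, and 54.1% called in either direction against 62.8% of all genes. The median log2 fold change was 0.30 for the members and 0.02 for all genes. Most changes were small: 31 of the 60 called members changed by less than 1.5-fold. At least 2-fold and called, 6 members were higher (3.14% of all genes) and 4 lower (1.43%). The 2 groups' CPM did not overlap for 62 members, and for 66.3% of all genes. The rule bears on the tally, because the 19 members below the proportionate share with lovastatin alone were admitted through the ligand libraries. Of these 12 were called higher. The other 92 held 36 called higher and 12 called lower.

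Of the 8 largest rises with SGA360, all but that of LINC01347 were in members with a mean under 5 CPM. These 7 had only 35 to 54 counts over the 3 libraries with lovastatin alone, so that they met the 200-count rule through the ligand libraries in which they were high. LINC00471, a neighbour of the nucleolin gene NCL, had 2.35, 2.61 and 1.73 CPM with SGA360 and 0.808, 0.901 and 0.714 CPM with lovastatin alone, a log2 fold change of 1.49 ± 0.26 (SE; adjusted p = 1.14e-06, edgeR). LINC02724 had 4.04, 2.78 and 3.54 CPM with SGA360 and 1.28, 0.977 and 1.43 CPM with lovastatin alone (1.47 ± 0.22, adjusted p = 1.98e-08). In both, the lowest SGA360 library exceeded the highest library with lovastatin alone. LINC01347, whose near-identical copies make its source uncertain, had 11, 11.9 and 12.3 CPM with SGA360 and 5.59, 5.33 and 5.39 CPM with lovastatin alone (1.10 ± 0.11, adjusted p = 1.69e-13). The other 5 were LINC01569 (log2 fold change 1.12), LINC02015 (1.11), LINC00663 (1.09), LINC01355 (1.00) and LINC00957 (0.98), each without overlap of the 2 groups.

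Among the falls with SGA360, LINC00668 showed the largest and was also the most abundant per kilobase of the 79 members with a length. It had 28.4, 28.9 and 28.1 CPM with SGA360 and 78.1, 80.1 and 80.6 CPM with lovastatin alone, 2.79-fold lower (-1.48 ± 0.049 on the log2 scale, adjusted p = 3.24e-37, edgeR). LINC02260 lies between the genes of the receptor tyrosine kinases PDGFRA and KIT. It had 1.69, 1.97 and 1.73 CPM with SGA360 and 4.45, 3.23 and 4.22 CPM with lovastatin alone (-1.14 ± 0.19, adjusted p = 2.52e-07). LINC00673, a conserved RNA known for binding that promotes degradation of the phosphatase PTPN11 in pancreatic cells, had 3.98, 4.0 and 4.96 CPM with SGA360 and 8.89, 9.09 and 9.54 CPM with lovastatin alone (-1.11 ± 0.12, adjusted p = 2.90e-12). LINC02387 fell by a similar amount (-1.10 ± 0.19, adjusted p = 7.96e-07). Smaller falls were those of LINC01963 (-0.49), LINC02038 (-0.43), LINC00857 (-0.42) and LINC01124 (-0.46). The call of LINC01124 ended without lovastatin replicate 2 (adjusted p = 0.135) and without SGA360 replicate 3 (adjusted p = 0.107), with scaling to totals only (0.0826) and with DESeq2 (0.0699).

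The 51 members not called with SGA360 included LINC00205, with a 95% interval of the log2 difference of -0.11 to 0.06, and LINC00842, with -0.42 to 0.18. For 20 of the 51 the interval lay within 0.5 on either side of 0. LINC00886 was not called with SGA360, with a log2 fold change of 0.37 ± 0.17 (adjusted p = 0.0502, edgeR). Its 3 values of 3.56, 3.60 and 3.70 CPM with SGA360 lay above the 2.76, 2.70 and 2.92 CPM with lovastatin alone. It passed with scaling to library totals only (adjusted p = 0.00934). The 63 members for which no values are given here held 26 called higher and 3 called lower with SGA360, with log2 fold changes of the called from -0.41 to 0.93. Over all genes 31.4% were called higher and 31.4% lower. The naming rules had taken the largest rises and falls, so this tally is shaped by selection.

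**Figure D2:**
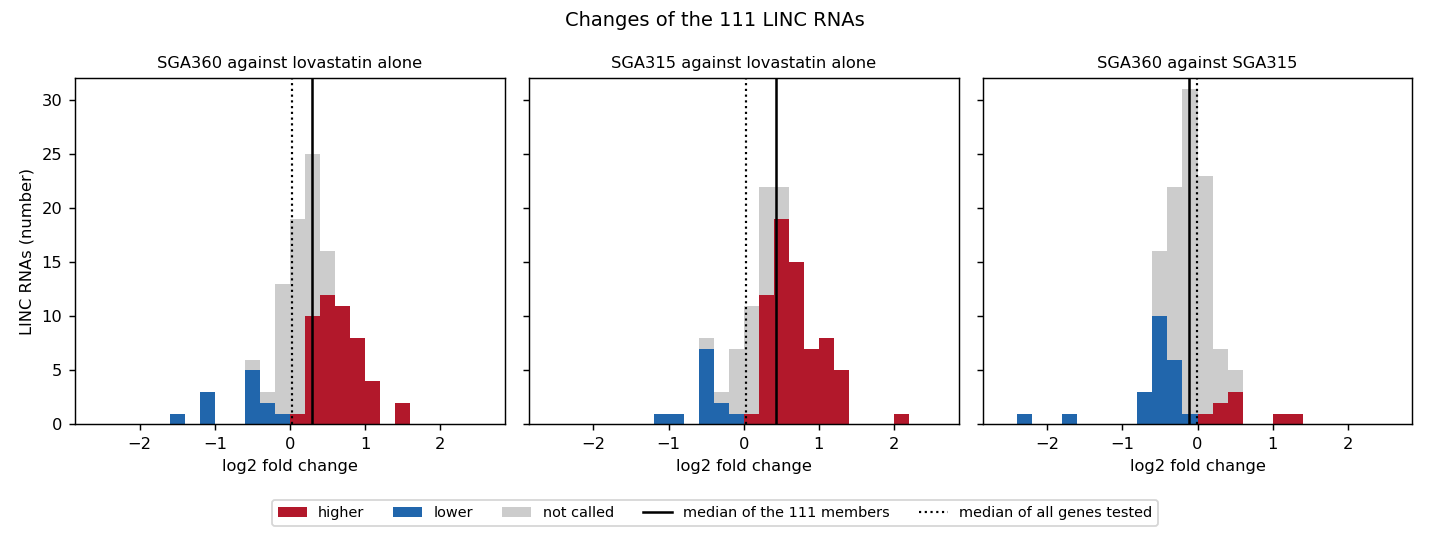
Number of LINC RNAs (vertical axis) by log2 fold change (horizontal axis, bins of equal width) in the 3 comparisons, coloured by call at adjusted p under 0.05. The solid line marks the median of the 111 members (0.30, 0.42 and -0.12) and the dotted line that of all 14663 genes tested (0.02, 0.04 and -0.01).

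SGA315 against lovastatin alone also showed more LINC RNAs higher than lower. Of the 111, 68 were higher, where 36.0% of all genes were called higher, and 12 were lower, where 33.2% were called lower (edgeR, adjusted p under 0.05). These are 61.3% and 10.8% of the members, and 72.1% were called in either direction against 69.2% of all genes. The median log2 fold change was 0.42 for the members and 0.04 for all genes. Of the 9462 tested genes with summed counts in the range of the members, 39.0% were higher and 28.6% lower, with a median of 0.07. At least 2-fold and called, 14 members were higher (4.80% of all genes) and 1 lower (2.16%). Changes under 1.5-fold made up 39 of the 80 calls, and the groups' CPM did not overlap for 77 members and for 70.4% of all genes. Of the same 19 members admitted through the ligand libraries 17 were called higher, and the other 92 held 51 called higher and 12 called lower.

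LINC00886 showed the largest rise. It lies beside TIPARP, which encodes an ADP-ribosyltransferase known as a direct AHR target. LINC00886 had 13.1, 12.1 and 12 CPM with SGA315 and 2.76, 2.70 and 2.92 CPM with lovastatin alone, 4.43-fold higher (2.15 ± 0.13 on the log2 scale, adjusted p = 4.33e-24, edgeR). TIPARP itself averaged 34.3 CPM with SGA360, 45.7 CPM with SGA315 and 34.9 CPM with lovastatin alone. Its log2 fold change against lovastatin alone was 0.39 with SGA315 (adjusted p = 1.77e-09, edgeR) and -0.03 with SGA360 (adjusted p = 0.705). The difference between TIPARP and LINC00886 was not tested. LEKR1, the neighbour on the other side and the nearer coding gene, stayed below 1 CPM on average in all 3 groups.

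LINC00673 had 22.3, 21.3 and 20.6 CPM with SGA315 and 8.89, 9.09 and 9.54 CPM with lovastatin alone, 2.33-fold higher (1.22 ± 0.086, adjusted p = 2.58e-20, edgeR). It was the one member of the 2 called in opposite directions with the ligands that changed at least 2-fold in both comparisons. The other, LINC00294, had 15.4, 16.8 and 16.5 CPM with SGA360, 22.1, 20.4 and 23.2 CPM with SGA315 and 17.6, 19 and 19 CPM with lovastatin alone. Its log2 fold changes were -0.19 ± 0.077 with SGA360 (adjusted p = 0.0261) and 0.24 ± 0.073 with SGA315 (adjusted p = 0.00282). The SGA360 call of LINC00294 ended without SGA360 replicate 1 (adjusted p = 0.0935), without lovastatin replicate 2 (0.0534) or 3 (0.0645), with scaling to totals only (0.383) and with DESeq2 (0.0738).

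The other large rises with SGA315 were those of LINC01569 (1.37), LINC00957 (1.35), LINC00663 (1.30), LINC01347 (1.26), LINC01748 (1.11) and LINC01719 (1.10), all on the log2 scale. All of these but LINC01347 had 41 to 50 counts over the 3 libraries with lovastatin alone and met the 200-count rule through the ligand libraries. LINC01569 had 2.44, 2.60 and 2.65 CPM with SGA315 and 1.15, 0.901 and 0.908 CPM with lovastatin alone. LINC00663, which lies among zinc finger genes, had 3.23, 2.53 and 2.73 CPM with SGA315 and 1.01, 1.50 and 0.973 CPM with lovastatin alone. In both, the groups were separated by more than their own spread. Among members with more counts, LINC00674 rose 1.95-fold (0.96 ± 0.047, adjusted p = 3.95e-28, edgeR) and LINC00205 rose 1.18-fold (0.23 ± 0.043, adjusted p = 2.23e-06).

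LINC00842 fell most with SGA315. It had 2.04, 1.96 and 1.89 CPM with SGA315 and 3.77, 4.43 and 5.0 CPM with lovastatin alone, 2.23-fold lower (-1.16 ± 0.18, adjusted p = 7.28e-08, edgeR). LINC00668 came next at 42.3, 37.6 and 41.7 CPM with SGA315 and 78.1, 80.1 and 80.6 CPM with lovastatin alone (-0.97 ± 0.046, adjusted p = 8.32e-29). The remaining named falls were smaller: LINC00941 (-0.60), LINC02387 (-0.57), LINC02038 (-0.57), LINC02985 (-0.49), LINC00857 (-0.47) and LINC02260 (-0.46). The call of LINC00941 ended without lovastatin replicate 1 (adjusted p = 0.0512) or 3 (0.147) and without SGA315 replicate 1 (0.0544) or 3 (0.0805). That of LINC02260 ended without lovastatin replicate 1 (adjusted p = 0.0739) and without SGA315 replicate 3 (0.0547). Scaling to totals alone likewise ended both calls (adjusted p = 0.0814 for LINC00941 and 0.0721 for LINC02260) and so did DESeq2 (0.0947 for LINC00941 and 0.0698 for LINC02260). Of the 63 members for which no values are given here, 36 were called higher with SGA315, with log2 fold changes from 0.25 to 1.07. Over all genes 36.0% were called higher. None of the 63 was called lower because the naming rules had taken all 12 members called lower.

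**Figure D3:**
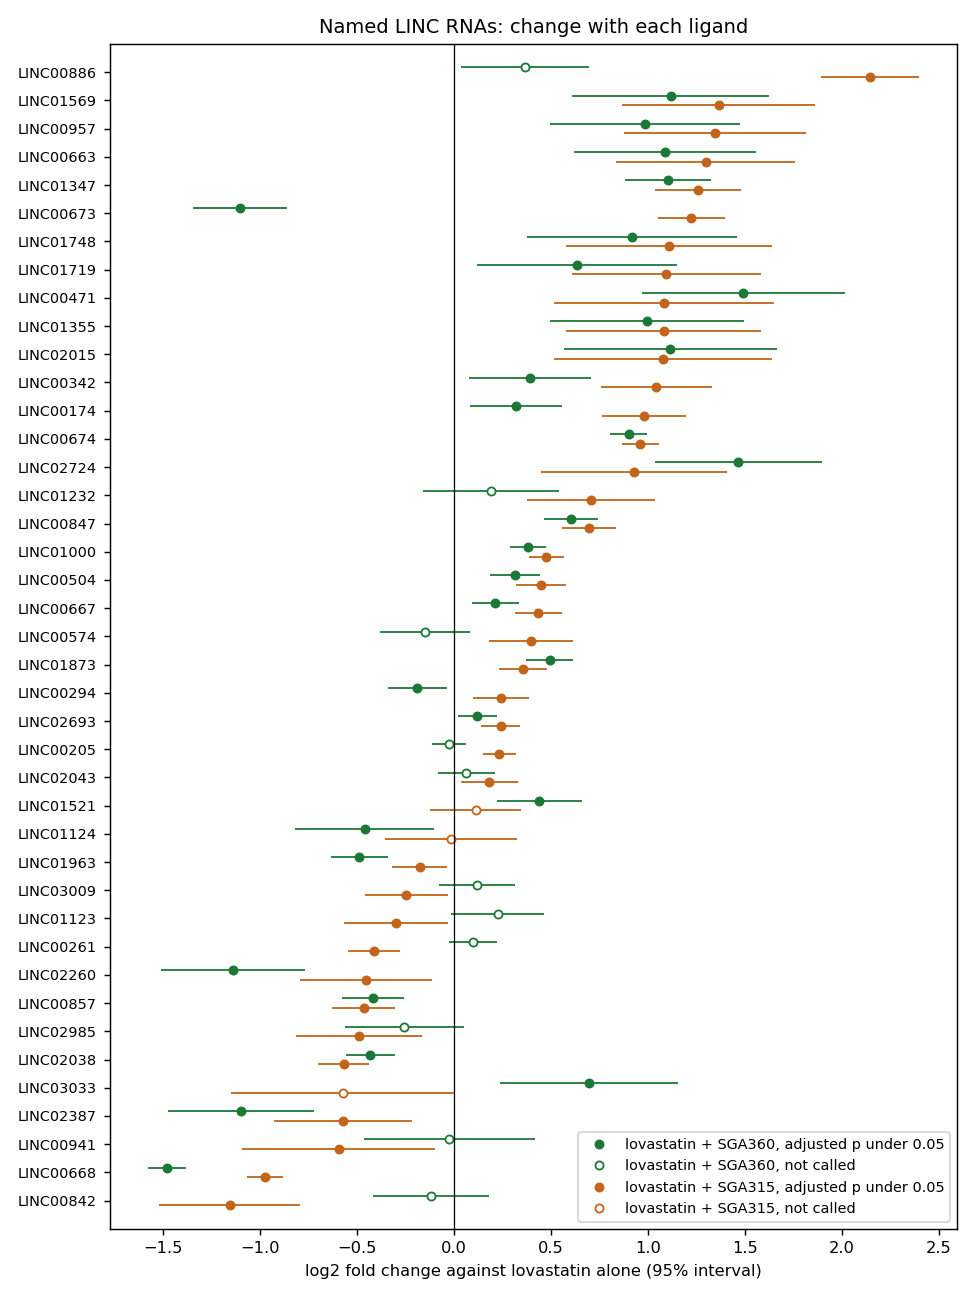
Log2 fold change against lovastatin alone (horizontal axis, with the 95% interval as a bar) of 41 named LINC RNAs (vertical axis), for lovastatin + SGA360 and lovastatin + SGA315. Filled points passed an adjusted p under 0.05. LINC00673 lies at -1.11 with SGA360 and at 1.22 with SGA315, and LINC00886 at 0.37 and 2.15.

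The 2 ligands were also compared directly, at the same dose and time. With SGA360 8 members were higher than with SGA315 (21.8% of all genes) and 22 were lower (20.9%), which is 7.21% and 19.8% of the 111 (edgeR, adjusted p under 0.05). The median log2 difference was -0.12 for the members and -0.01 for all genes. Of the 9462 tested genes with summed counts in the members' range, 19.6% were higher and 19.2% lower, with a median of -0.01. LINC00673 differed most, at 3.98, 4.0 and 4.96 CPM with SGA360 and 22.3, 21.3 and 20.6 CPM with SGA315, 5.03-fold lower with SGA360 (-2.33 ± 0.10, adjusted p = 4.71e-30). LINC00886 followed at 3.56, 3.60 and 3.70 CPM with SGA360 and 13.1, 12.1 and 12 CPM with SGA315 (-1.78 ± 0.12, adjusted p = 7.95e-21). These 2 members were called lower with SGA360 by at least 2-fold (0.948% of all genes).

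LINC00174 had 8.75, 8.29 and 7.0 CPM with SGA360 and 14.6, 11.4 and 12.3 CPM with SGA315, a log2 difference of -0.66 ± 0.10 (adjusted p = 1.70e-07, edgeR). LINC00342 had 4.52, 4.0 and 3.78 CPM with SGA360 and 6.32, 6.59 and 6.59 CPM with SGA315 (-0.65 ± 0.13, adjusted p = 4.16e-05). Both were lower in each SGA360 library than in any SGA315 library. The other named members lower with SGA360 were LINC02260 (-0.68), LINC00574 (-0.55), LINC02387 (-0.53) and LINC01232 (-0.52). LINC01232 shares exon sequence with the coding gene TM9SF2 on the opposite strand, and its call ended without SGA360 replicate 1 (adjusted p = 0.057). The call of LINC02387 ended without SGA360 replicate 2 (adjusted p = 0.084) or 3 (0.142) and without SGA315 replicate 2 (0.323). With DESeq2 neither was called (adjusted p = 0.0535 for LINC01232 and 0.123 for LINC02387).

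In the other direction, LINC03033, between the protein kinase C gene PRKCH and HIF1A, had 2.59, 1.80 and 3.70 CPM with SGA360 and 0.987, 1.05 and 1.21 CPM with SGA315 (1.27 ± 0.25, adjusted p = 3.36e-05, edgeR). LINC00842 had 4.52, 3.77 and 3.86 CPM with SGA360 and 2.04, 1.96 and 1.89 CPM with SGA315 (1.04 ± 0.18, adjusted p = 2.74e-06). These 2 were higher with SGA360 by at least 2-fold (0.457% of all genes). LINC00261 had 30.8, 31.6 and 31.2 CPM with SGA360 and 23.8, 20.8 and 20.9 CPM with SGA315 (0.51 ± 0.065, adjusted p = 1.18e-09). The other named members higher with SGA360 were LINC02724 (0.54), LINC01123 (0.52), LINC03009 (0.36), LINC01521 (0.33) and LINC01873 (0.14). Calls ended for LINC02724 without SGA360 replicate 1 (adjusted p = 0.148) or SGA315 replicate 2 (0.072), and for LINC01521 without SGA360 replicate 2 (0.0993) or SGA315 replicate 2 (0.0645). For LINC01873 the call ended without any 1 of 4 libraries, SGA360 replicates 1 (0.174) and 2 (0.17) and SGA315 replicates 2 (0.0707) and 3 (0.174), and with scaling to totals only (0.0658). With DESeq2 none of these 3 was called (adjusted p = 0.0924 for LINC02724, 0.0639 for LINC01521 and 0.137 for LINC01873).

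No difference between the ligands was called for 81 members, and for 40 of these the 95% interval lay within 0.5 on either side of 0 on the log2 scale. LINC00674, higher with either ligand than with lovastatin alone, had an interval of -0.14 to 0.02, and LINC00857 one of -0.12 to 0.22. It was wider for the scarce members LINC00471 (-0.03 to 0.85) and LINC01569 (-0.65 to 0.16). Of the 63 members for which no values are given here, 5 were called between the ligands, with log2 differences from -0.51 to -0.24. Over all genes 20.9% were called lower. That each of the 5 was lower with SGA360 follows from selection, because the naming rules had taken all 8 members called higher. The groups' CPM did not overlap for 40 members, and for 49.2% of all genes.

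The promoters of the members with the largest called rise and fall of each ligand are shown because AHR and its partner ARNT bind the core GCGTG. Each is 250 bases before to 50 after the RefSeq start, in GRCh38.p14, 5′ to 3′ on the strand of the gene. Capitals mark matches, on either strand, to GCGTG, which reads as CACGC from the other strand, to TNGCGTG, which contains it, to the E-box CACGTG, to TGANTCA (AP-1) or to TATAAA. LINC00471 (chr2:231514328-231514627, minus strand) rose most with SGA360, LINC00668 (chr18:6929820-6930119, minus strand) fell most with SGA360, LINC00886 (chr3:156817013-156817312, minus strand) rose most with SGA315 and LINC00842 (chr10:46398112-46398411, plus strand) fell most with SGA315. LINC00673 (chr17:72592755-72593054, minus strand) is added for its opposite changes with the 2 ligands, a choice made after its values were seen.
LINC00471: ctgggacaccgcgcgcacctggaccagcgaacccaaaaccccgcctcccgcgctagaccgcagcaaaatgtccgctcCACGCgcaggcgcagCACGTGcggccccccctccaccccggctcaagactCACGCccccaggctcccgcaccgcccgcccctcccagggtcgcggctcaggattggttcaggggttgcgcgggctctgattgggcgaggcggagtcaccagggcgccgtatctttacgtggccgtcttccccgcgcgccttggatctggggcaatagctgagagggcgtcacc
LINC00668: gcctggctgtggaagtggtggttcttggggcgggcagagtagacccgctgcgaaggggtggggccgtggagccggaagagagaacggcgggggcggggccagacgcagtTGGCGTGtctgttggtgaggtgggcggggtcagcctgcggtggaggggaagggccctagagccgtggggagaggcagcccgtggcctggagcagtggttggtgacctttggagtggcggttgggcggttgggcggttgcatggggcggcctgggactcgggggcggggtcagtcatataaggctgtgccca
LINC00886: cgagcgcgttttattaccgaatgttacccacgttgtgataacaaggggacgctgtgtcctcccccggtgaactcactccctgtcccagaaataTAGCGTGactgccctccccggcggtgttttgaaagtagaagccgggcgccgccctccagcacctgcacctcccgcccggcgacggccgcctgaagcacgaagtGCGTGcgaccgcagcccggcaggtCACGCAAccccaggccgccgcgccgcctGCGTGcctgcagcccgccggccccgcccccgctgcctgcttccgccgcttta
LINC00842: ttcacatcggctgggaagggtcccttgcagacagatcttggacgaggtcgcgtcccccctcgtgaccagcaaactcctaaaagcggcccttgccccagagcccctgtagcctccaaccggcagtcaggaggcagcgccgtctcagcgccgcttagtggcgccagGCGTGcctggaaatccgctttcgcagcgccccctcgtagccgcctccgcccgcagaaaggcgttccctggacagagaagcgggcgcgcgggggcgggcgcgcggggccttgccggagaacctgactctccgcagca
LINC00673: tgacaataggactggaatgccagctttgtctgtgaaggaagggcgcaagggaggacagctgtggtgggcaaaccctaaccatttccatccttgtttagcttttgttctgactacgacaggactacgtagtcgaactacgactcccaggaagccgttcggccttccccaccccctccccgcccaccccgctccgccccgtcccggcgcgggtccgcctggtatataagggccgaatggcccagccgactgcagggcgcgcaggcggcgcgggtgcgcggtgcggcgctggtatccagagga

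LINC00886 held 4 GCGTG matches, 2 of them within TNGCGTG. LINC00471 held 2 and 1 CACGTG, LINC00668 held 1, within TNGCGTG, LINC00842 held 1 and LINC00673 held none of the motifs. Over the 80 members with a promoter in the RefSeq table, GCGTG occurred in 27, or 33.8%, against 36.3% of all 27305 promoters. TNGCGTG occurred in 5.0% of members and 5.51% of all promoters, TGANTCA in 11.2% and 7.76%, CACGTG in 6.25% and 7.43%, and TATAAA in 10.0% of members and 12% of all promoters. GCGTG was in 9 of 33 promoters of members higher with SGA360, in 2 of 9 of those lower and in 16 of 38 of those not called. With SGA315 it was in 17 of 50 of those higher, in 5 of 10 of those lower and in 5 of 20 of those not called. A match is a run of letters and not a measured binding site. The median GC content of the windows was 59.8% for members and 58.3% for all promoters.

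Neighbouring coding genes were read from the same libraries. LINC00673 lies between SOX9, a transcription factor of the intestinal crypt, and the zinc transporter gene SLC39A11. SOX9 averaged 96.5 CPM with SGA360, 164 CPM with SGA315 and 179 CPM with lovastatin alone, with log2 fold changes against lovastatin alone of -0.89 with SGA360 (adjusted p = 2.71e-32, edgeR) and -0.12 with SGA315 (adjusted p = 0.00107). SLC39A11 changed by 0.20 with SGA360 (adjusted p = 0.00953) and 0.50 with SGA315 (adjusted p = 1.26e-09). For SGA360 against SGA315 the log2 differences were -0.77 for SOX9, -0.30 for SLC39A11 and -2.33 for LINC00673.

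FOXA2, next to LINC00261, averaged 56.4 CPM with SGA360, 42.9 CPM with SGA315 and 63 CPM with lovastatin alone. Between the ligands it was higher with SGA360 by 0.40 (adjusted p = 1.22e-10, edgeR), beside 0.51 for LINC00261. ANXA8L1, an annexin gene next to LINC00842, averaged 3.17 CPM with SGA360, 1.44 CPM with SGA315 and 2.96 CPM with lovastatin alone. It fell by 1.05 on the log2 scale with SGA315 (adjusted p = 3.39e-05), and LINC00842 by 1.16. PDGFRA and KIT, on either side of LINC02260, changed by -1.07 and -0.62 with SGA360 and by -0.94 and -0.43 with SGA315, all called and all lower, like LINC02260. SP5, a Wnt-responsive transcription factor gene next to LINC01124, changed by -0.85 with SGA360 and -0.35 with SGA315 (adjusted p = 7.40e-10). LINC01124 itself had -0.46 with SGA360 and was not called with SGA315 (-0.02, adjusted p = 0.933).

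At some other members the overlapping or flanking coding genes did not all share a direction. LINC00668 lies between ARHGAP28 and LAMA1, encoding a laminin chain. ARHGAP28 was higher by 0.85 with SGA360 and 0.29 with SGA315 against lovastatin alone, where LINC00668 was lower, while LAMA1 changed by -0.60 with SGA360 and -0.12 with SGA315, all called. LINC00674 rose with either ligand, where KPNA2, encoding an importin, had log2 fold changes of -0.54 with SGA360 and -0.73 with SGA315, and AMZ2, on its other side, 0.50 with SGA360 and 0.47 with SGA315. LINC00857 fell with either ligand, as did ANXA11 (-0.37 with SGA360 and -0.79 with SGA315), and MAT1A, encoding a methionine adenosyltransferase, rose (1.16 with SGA360 and 1.99 with SGA315). LINC00847 rose together with ZFP62 (0.43 with SGA360 and 0.62 with SGA315), with which it overlaps and may share reads. The genes on its 2 sides were called lower, BTNL8 (-1.73 with SGA360 and -1.07 with SGA315) and MGAT1 (-0.33 with SGA360 and -0.16 with SGA315).

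Across the 87 members whose nearest coding gene was tested, the log2 fold changes of member and neighbour had a Pearson r of 0.01 (Spearman coefficient 0.05) for SGA360 and 0.12 (0.12) for SGA315, each against lovastatin alone, and 0.36 (0.34) for SGA360 against SGA315. These are descriptions across genes, which share libraries and are not independent. In the direct comparison of the ligands both partners were called in 17 pairs, 15 of them in the same direction. With SGA360 against lovastatin alone both were called in 32 pairs, 18 in the same direction, and with SGA315 in 45 pairs, 26 in the same direction. Of all genes 42.7% were called between the ligands, 62.8% with SGA360 and 69.2% with SGA315. Pairs of adjacent genes in general were not counted, so the pair counts have no baseline. In some pairs, as LINC00847 with ZFP62 and LINC01232 with TM9SF2, the nearest gene overlaps the member, and reads may be shared. The neighbour had the higher CPM in 86.2% of pairs, without correction for length.

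**Figure D4:**
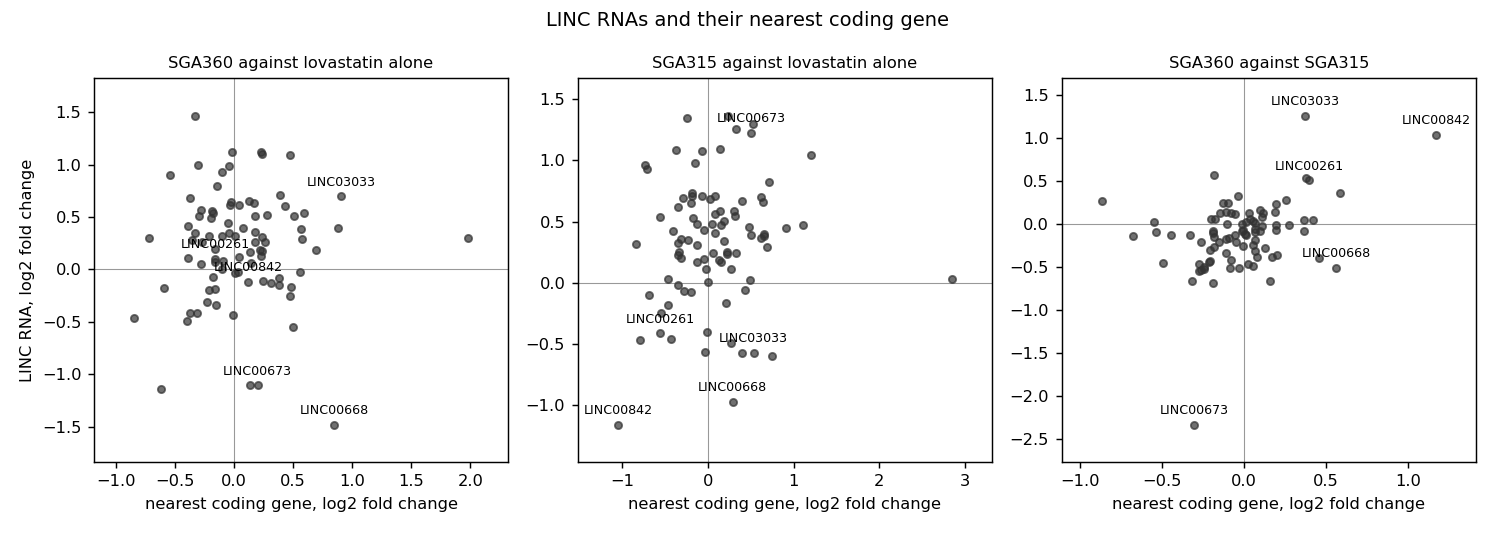
Log2 fold change of 87 LINC RNAs (vertical axes) against that of their nearest coding gene (horizontal axes) in the 3 comparisons, 1 point per pair, with 5 members named above their points. Points spread over all quadrants in the comparisons with lovastatin alone (Pearson r 0.01 and 0.12), and r was 0.36 for SGA360 against SGA315. Pairs that overlap, and so may share reads, are included.

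In 4 cases 2 members lay in the same gap between coding genes, and the second partners here were chosen for that position with their values known. LINC00242 and LINC00574, which overlap each other between ERMARD and the Notch ligand gene DLL1, changed with SGA315 by 0.38 ± 0.11 (adjusted p = 0.00115, edgeR) and 0.40 ± 0.11 (adjusted p = 0.001) against lovastatin alone. With SGA360 neither was called (-0.08 for LINC00242 and -0.15 for LINC00574). LINC00667 and LINC00526, between AKAIN1 and ZBTB14, rose with SGA315 by 0.43 for LINC00667 and 0.47 for LINC00526. With SGA360 LINC00667 was called (0.21) and LINC00526 was not (0.16, adjusted p = 0.158). LINC01232 and LINC00449, both antisense to exons of TM9SF2, rose with SGA315 by 0.71 for LINC01232 and 0.56 for LINC00449, where TM9SF2 changed by 0.08. The call of LINC00449 ended without lovastatin replicate 2 and with DESeq2 (adjusted p up to 0.101), and with SGA360 neither was called (0.19 for LINC01232 and 0.07 for LINC00449). LINC02987 and LINC00662, which overlap each other between ZNF254 and UQCRFS1, differed in their calls. LINC02987 was called with neither ligand (0.05 with SGA360 and 0.23 with SGA315), and LINC00662 was called higher with SGA360 (0.57, adjusted p = 0.0143) and with SGA315 (0.62, adjusted p = 0.00739). With DESeq2 LINC00662 was called with neither, and its SGA360 call also ended without any 1 of 3 libraries, SGA360 replicates 1 and 2 and lovastatin replicate 3 (adjusted p up to 0.0802). Since strand was not stated, reads of overlapping partners may have been shared.

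Calls were also counted without the members that overlap a coding gene. Of the other 93, 43 were higher and 10 lower with SGA360, 58 and 10 with SGA315, each against lovastatin alone, and 6 were higher and 18 lower with SGA360 against SGA315. The called shares over all genes were 31.4% higher and 31.4% lower with SGA360, 36.0% higher and 33.2% lower with SGA315, and 21.8% higher and 20.9% lower with SGA360 against SGA315. Among the 10 members with a near-identical copy, 4 were higher and 1 lower with SGA360, and 5 were higher and 2 lower with SGA315.

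Summed over the 111 members, LINC RNAs reached 1008 ± 17.4 CPM with SGA360, 1115 ± 13.3 CPM with SGA315 and 920 ± 12.9 CPM with lovastatin alone (SD, n = 3 each). The sum was 9.61% higher with SGA360 and 21.2% higher with SGA315 than with lovastatin alone, and differed by -9.54% for SGA360 against SGA315. The groups did not overlap. Scaling bears on these values. TMM factors were 1.022 to 1.031 with SGA360, 1.026 to 1.032 with SGA315 and 0.943 to 0.952 with lovastatin alone. Scaled to library totals only, the log2 ratio of the sums against lovastatin alone was 0.25 in place of 0.13 with SGA360 and 0.40 in place of 0.28 with SGA315. As unscaled shares of all counts, the members made up 0.102 to 0.104% with SGA360, 0.114 to 0.116% with SGA315 and 0.0857 to 0.0878% with lovastatin alone.

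**Figure D5:**
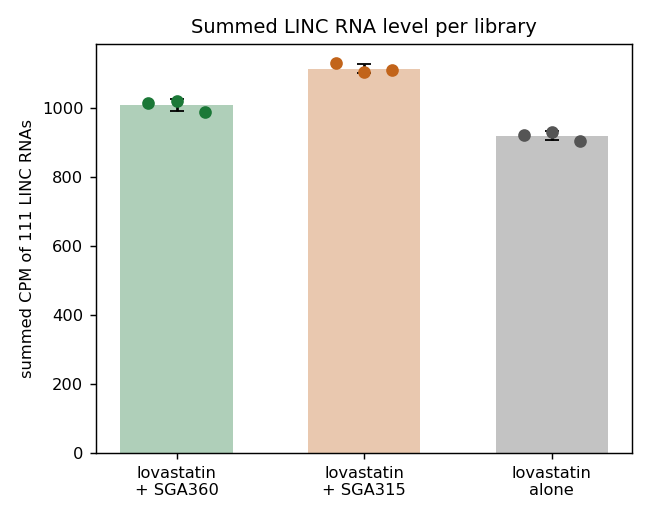
Summed CPM of the 111 LINC RNAs (vertical axis, from 0) in each library (points), with the mean (bar) and SD of 3 libraries, for lovastatin + SGA360, lovastatin + SGA315 and lovastatin alone. The 3 groups average 1008, 1115 and 920 CPM and do not overlap.

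Other long non-coding RNAs give the setting. Of 746 lncRNA genes without a LINC name and with at least 200 counts, 211 were higher and 129 lower with SGA360 (median log2 fold change 0.10), and 263 and 145 with SGA315 (median 0.12), each against lovastatin alone. Between SGA360 and SGA315, 89 were higher and 107 lower (median -0.03). For comparison, over all genes the called shares were 31.4% higher and 31.4% lower with SGA360, 36.0% and 33.2% with SGA315, and 21.8% and 20.9% between the ligands, and the lncRNA counts were below them, at 28.3% higher and 17.3% lower with SGA360, 35.3% and 19.4% with SGA315, and 11.9% and 14.3% between the ligands. Host genes of small nucleolar RNAs hold in their introns the RNAs that guide ribosomal RNA modification. The list of them used here was wider, as it also held TUG1. Of its 29 tested members 15 were higher (31.4% of all genes) and 5 lower (31.4%) with SGA360. With SGA315 14 were higher (36.0%) and 6 lower (33.2%). TUG1 is among those called higher with SGA360 (0.10) and with SGA315 (0.21). GAS5, the growth arrest RNA of this list, averaged 424 ± 17 CPM with SGA360, 423 ± 8.84 CPM with SGA315 and 180 ± 7.07 CPM with lovastatin alone (SD, n = 3 each). Its log2 fold changes were 1.23 ± 0.030 with SGA360 (adjusted p = 3.62e-44, edgeR) and 1.23 ± 0.031 with SGA315 (adjusted p = 2.10e-44). SNHG29 rose by 1.01 with SGA360 and 1.01 with SGA315, and ZFAS1 by 1.07 with SGA360 and 0.98 with SGA315. Between the ligands 3 of the 29 were higher (21.8% of all genes) and 5 lower (20.9%) with SGA360, the lower ones led by EPB41L4A-AS1 (-0.27), SNHG1 (-0.16) and SNHG7 (-0.19).

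Of 27 genes tested on a list of other named lncRNAs, 7 were higher and 7 lower with SGA360 (31.4% and 31.4% of all genes). With SGA315 9 were higher and 7 lower (36.0% and 33.2%), and between the ligands 6 and 6 (21.8% and 20.9%). These counts are near or under the shares of all genes. They include MTLN, a protein-coding gene in the RefSeq table, called lower with SGA315 (-0.23) and higher with SGA360 than with SGA315 (0.31). NEAT1, the scaffold RNA of nuclear paraspeckles, averaged 147 ± 2.82 CPM with SGA360, 189 ± 8.79 CPM with SGA315 and 72.1 ± 2.47 CPM with lovastatin alone, with log2 fold changes of 1.03 ± 0.038 with SGA360 (adjusted p = 1.29e-34, edgeR) and 1.39 ± 0.037 with SGA315 (adjusted p = 8.71e-43). MALAT1, an RNA of nuclear speckles, rose by 0.52 with SGA360 and by 0.21 with SGA315. It was higher with SGA360 than with SGA315 by 0.31. TMPO-AS1 fell by 0.52 with SGA360 and by 0.70 with SGA315, and CRNDE rose by 0.30 with SGA360 and by 0.56 with SGA315. NORAD, which binds PUMILIO proteins, was lower with SGA360 than with SGA315 (-0.24). Of 8 microRNA host genes tested, 2 were lower with SGA360 (31.4% of all genes), and 1 was higher (36.0%) and 2 lower (33.2%) with SGA315. MIR17HG, the precursor of the miR-17-92 cluster, averaged 6.28 ± 0.591 CPM with SGA360, 6.82 ± 0.0718 CPM with SGA315 and 11.6 ± 0.224 CPM with lovastatin alone. Its log2 fold changes were -0.88 with SGA360 (adjusted p = 4.09e-11, edgeR) and -0.77 with SGA315 (adjusted p = 1.98e-09).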

How the data were processed

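Poly(A) RNA of 9 Caco-2 libraries, 3 per group, was analysed from raw counts per RefSeq transcript accession that the authors deposited, whole numbers without normalisation per the file headers. The submitters' processing notes name TopHat2 2.0.13, HTSeq 0.5.4p3 and the genome hg19. Annotation release, strand setting and filters: not given in the sources used here. Of 65325 entries, 64346 matched the RefSeq gene table (GRCh38.p14), 545 only GENCODE 29 and 434 neither. The last held 0.255% of counts and were left out. The builds differ, so that no coordinate was carried over to the counts. Gene names, neighbours, overlaps, transcript lengths, exon numbers and promoter sequences come from these tables and hold in their build. The entry with the highest total stood for each gene, and of 29 sets of genes with identical counts 52 genes were dropped, none of them a LINC gene, leaving 27645 genes.

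The test was the edgeR 4.0.16 quasi-likelihood F test under R 4.3.3 (TMM scaling, filterByExpr with minimum count 10 and minimum total 15). All 9 libraries shared 1 fit, with Benjamini-Hochberg adjustment over all 14663 tested genes. CPM were computed from the deposited counts with TMM-scaled library sizes. The floor of 3 counts for a count of 0 lay at 0.174 to 0.236 CPM, for counting error only. Replicates of a group differed by more than sampling noise (chi-square per degree of freedom 1.36 to 2.40). The fit was tested on simulated counts. Alternatives were RLE scaling, scaling to totals, DESeq2 1.42.0, no filter, the compared groups only, a replicate block, the lowest accession of each gene, other minimum totals, and leaving out each library.

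Named members were the 12 with the highest mean CPM, the 8 largest called rises and falls of each comparison, and those called in opposite directions with the ligands, 41 in all. The 2 members at the 200-count minimum are named with their counts only, and 5 more because they share a gap between coding genes with another member. Named coding genes neighbour or overlap these, and 3 genes of smallest p were taken per lncRNA list. The members, lists and rules were chosen with earlier results of these data known. The level of a single leukocyte marker is not reported here.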

Additional observations from a re-analysis of the deposited data

How the results depend on the processing

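All 3 comparisons kept the same direction of the summed level under every alternative that gave a value. Of the 41 named members' results, 988 values under an alternative kept their call, 59 lost it, 6 gained one and none reversed. Of 60, 80 and 30 calls (SGA360 against lovastatin alone, SGA315 against lovastatin alone, SGA360 against SGA315), 38, 55 and 19 held under every alternative fit. With a minimum total of 500 counts, which leaves 55 genes, fewer calls follow by construction. There 27 were higher with SGA360, 37 higher and 7 lower with SGA315, and 5 higher with SGA360 than with SGA315. In the main fit the called shares of all genes were 31.4% higher with SGA360 and 36.0% higher and 33.2% lower with SGA315. Between the ligands 21.8% were higher with SGA360. Scaling to totals only gave 7 lower with SGA315 and summed log2 ratios of 0.247 with SGA360 and 0.398 with SGA315, and it moved the median of all genes to 0.14 with SGA360 and 0.16 with SGA315 (log2), against 0.02 and 0.04 with TMM. Relative to that median the sums stood at 0.11 and 0.24 in either scaling. This follows by construction, because a change of scaling shifts sum and median by about the same amount. DESeq2 gave 7 lower with SGA315 and 5 higher with SGA360 than with SGA315, and the cause was not tested. Over all genes DESeq2 called 8916 with SGA315 and 4706 between the ligands, against 10152 and 6256 in the main fit. Scaling to totals called 10545 of all genes with SGA315. Leaving out 1 library gave 39 to 46 higher and 10 to 12 lower with SGA360, 59 to 65 higher and 8 to 12 lower with SGA315, and 5 to 9 higher and 20 to 24 lower between the ligands, with 5 higher without SGA315 replicate 2. Over all genes these fits called 8554 to 9373 with SGA360, 9600 to 10198 with SGA315 and 5329 to 6204 between the ligands. The summed log2 ratios were then 0.122 to 0.146, 0.266 to 0.286 and -0.154 to -0.131. Same-numbered replicates deviated together hardly at all over all tested genes (correlations -0.02 to 0.05). No pairing by number was seen, but sampling noise in scarce genes could hide a weak one. A replicate block gave 49 higher and 12 lower with SGA360, 68 and 12 with SGA315, and 8 and 23 between the ligands. Over all genes the block fit called 9334, 10266 and 6429 in these comparisons. Depth limits the scarce members, for which only large changes could be called.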
